A study of Mus musculus with 12 samples.

Results

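Mitosis genes encode the kinases, cyclins, motors and chromosome proteins that carry a cell from the end of DNA replication through chromosome separation to cytokinesis. The 36 genes described here were chosen by name, as mitotic kinases, cyclins, kinesins, and centromere and spindle genes, out of 56980 genes in the count matrix, and all 36 were found in it. RNA was sequenced from whole livers of 12 male mice of the strain B6.Cg-Lepob/J (ob/ob, genotype Lep-/-), which lack the hormone leptin and become obese. All mice started at 8 weeks of age, were fed freely, and were 11 weeks old when the liver was taken. For 3 weeks, 6 mice were given chow with 25% of its energy from protein (the standard diet, SPD) and 6 were given chow with 5% (the low protein diet, LPD), so leptin deficiency was common to both groups. No lean mice are among the samples analysed here. The comparison of LPD with SPD addresses how protein restriction changed the metabolism and fat of the liver in these mice.

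Entry into mitosis is driven by the kinase Cdk1 bound to cyclins A and B, and exit by the anaphase-promoting complex (APC/C), which marks cyclins for destruction. Most of these genes are transcribed in a burst late in the cell cycle, when the MuvB complex with B-Myb and FOXM1 is at their promoters, and are held off in resting cells by the DREAM complex. Few hepatocytes of an adult liver divide, and many of them are polyploid because of mitoses without cytokinesis, so these mRNAs are rare in liver. In whole tissue, fewer cells in mitosis and less mRNA per cell cannot be told apart.

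Total counts per library were 19374676 to 23710930 in SPD and 19404340 to 23681408 in LPD, and the 36 genes together had 2299 to 2847 counts in an SPD library and 781 to 1166 in an LPD library. Levels are in CPM (a gene's count over the library's total, TMM scaled), and a fold change is LPD over SPD on the log2 scale ± SE with 6 livers per diet. Of 9 hepatocyte markers 5 rose, 0 fell by edgeR's quasi-likelihood test and 4 did not pass, while 20.7% of all tested genes rose and 19.2% fell. The 9 summed to 78602 to 86143 CPM in SPD and 73093 to 99957 in LPD. LPD replicate 1 was kept in LPD by its title and library code, although its treatment label and description give the 25% chow. Its summed level of the 36 genes was 53.1 CPM, the highest among LPD livers, against 111 to 150.2 CPM in SPD livers. On the first principal component of all genes, LPD replicates 2 and 5 were at 48.7 and 44.6, away from the remaining LPD livers at 15.3 to 22.5.

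The promoters of the genes are shown before the values, and whether they have a part in the fold changes was not tested. RefSeq promoter windows (GRCm38.p6, 250 bases before to 50 after the transcription start) were found by symbol for 32 of the 36 genes. Ccna2, Aurkb, Kif20a and Tpx2 were not matched. The letters searched on both strands included CCAAT, the site known for the factor NF-Y, and TTTGAA and TTTAAA, the forms of the cell cycle genes homology region (CHR) known to be bound by DREAM and MuvB. The 250 bases before the start are printed for Cdk1 and Plk1, the kinases that drive entry into mitosis, Cdc20, the activator of the APC/C, Top2a, the enzyme that untangles chromosomes, and Mad2l1, a checkpoint gene in whose window none of the 3 was found. Capitals mark each match, printed as its reverse complement where it lies on the other strand.
Cdk1, chr10:69352913-69353162, minus strand: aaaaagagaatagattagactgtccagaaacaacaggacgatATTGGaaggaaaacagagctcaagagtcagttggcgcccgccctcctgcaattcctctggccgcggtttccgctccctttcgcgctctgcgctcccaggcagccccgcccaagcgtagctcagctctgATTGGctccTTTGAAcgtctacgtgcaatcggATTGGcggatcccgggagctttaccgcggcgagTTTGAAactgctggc
Plk1, chr7:122159185-122159434, plus strand: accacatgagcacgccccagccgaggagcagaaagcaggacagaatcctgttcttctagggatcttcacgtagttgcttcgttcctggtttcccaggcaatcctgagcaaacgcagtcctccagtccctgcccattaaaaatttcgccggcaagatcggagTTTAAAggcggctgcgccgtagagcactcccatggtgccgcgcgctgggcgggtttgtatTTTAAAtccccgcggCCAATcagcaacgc
Cdc20, chr4:118437344-118437593, minus strand: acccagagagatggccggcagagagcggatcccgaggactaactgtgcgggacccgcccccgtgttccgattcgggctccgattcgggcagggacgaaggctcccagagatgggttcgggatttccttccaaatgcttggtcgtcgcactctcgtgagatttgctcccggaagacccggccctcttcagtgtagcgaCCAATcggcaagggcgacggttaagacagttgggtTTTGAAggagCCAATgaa
Top2a, chr11:99024190-99024439, minus strand: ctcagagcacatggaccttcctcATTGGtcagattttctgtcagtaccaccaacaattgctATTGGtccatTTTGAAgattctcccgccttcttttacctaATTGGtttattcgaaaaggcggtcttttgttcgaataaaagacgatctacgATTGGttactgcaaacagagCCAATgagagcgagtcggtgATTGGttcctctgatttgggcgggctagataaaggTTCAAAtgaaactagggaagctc
Mad2l1, chr6:66534971-66535220, plus strand: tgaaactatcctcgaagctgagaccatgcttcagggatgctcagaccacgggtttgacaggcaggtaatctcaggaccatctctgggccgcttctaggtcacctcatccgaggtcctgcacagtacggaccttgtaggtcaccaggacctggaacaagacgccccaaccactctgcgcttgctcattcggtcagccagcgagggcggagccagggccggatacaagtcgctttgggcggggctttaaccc

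In Cdk1, TTTGAA began 15 and 71 bases before the start and CCAAT 48, 80 and 208 bases before it. Plk1 had TTTAAA 29 and 89 bases and CCAAT 14 bases before the start. In these windows CHR letters and CCAAT lay close together. Cdc20 had TTTGAA 18 bases before the start, between CCAAT at 53 and at 8 bases. The Top2a window held CCAAT 6 times, the nearest 58 bases before the start, and TTTGAA 23 and 179 bases before it.

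Of the 34 windows of the 32 genes (Prc1 and Ect2 have 2 each), 27 held CCAAT (79.4%), against 37.5% of 13298 windows of the other tested genes and 37.4% of all 32851 windows. TTTGAA or TTTAAA was in 29 (85.3%), against 20.2% of the other tested genes' windows and 27.6% of all. Both kinds were in 25 windows of 23 genes (73.5%), against 7.72% and 10.7%. Both kinds of letters were thus in most of the mitosis windows and in few windows overall. The windows of Mad2l1, Nuf2 and Nusap1 held none of the 3. That of Mad2l1 ended at base 66535270, short of the GENCODE gene start at 66535390, so the bases next to that start were not searched. The Kif2c window (117178723 to 117179022), which held no CCAAT, lay inside the GENCODE gene (117159639 to 117182639) and did not reach its start. The windows of Cdca8, Cdca3 and Kif4, which held both kinds, also lay inside their GENCODE genes without reaching the GENCODE start. Among other cell cycle genes, both kinds were in 41.3% of 63 windows of other mitosis genes, in 20.8% of 24 windows of DNA replication genes and in 5.26% of 19 windows of APC/C subunits. The 23 genes with both kinds had a median log2 fold change of -1.65 and the 9 without both -1.34, with ranges of -2.35 to -0.83 and -2.13 to -0.92 that cover much the same span. The E2F-like letters TTGGCGC were in 5 windows (14.7%, against 3.94% of the other tested genes' windows and 2.45% of all) and TTCGCGC in 1 (2.94%, against 2.86% and 1.59%). TATAAA, the letters of the TATA box, was anywhere in the window in 1 (2.94%, against 7.97% and 13.6%), that of Kif2c, 228 bases before the start. These matches are descriptions of letters, not of binding.

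Messages of the mitosis genes were lower in LPD livers across every role, from cyclins to kinesins and kinetochore proteins. In a fit of all genes with a count, which keeps the rarest members, all 36 had a negative fold change and 35 fell at an adjusted p under 0.05, against 10.2% of the 24820 genes in that fit that were lower. The median over the 36 was -1.65, a 3.14-fold lower level, with a range of -2.35 (Ccnb1) to -0.83 (Cenpa). Of the 36, 33 were at least 2-fold and 10 at least 4-fold lower. Ndc80 was the one that did not pass (adjusted p = 0.0774 by edgeR's quasi-likelihood test). In 29 of the 36 every LPD liver lay below every SPD liver. Among genes past a filter on low counts this held for 28 of 33 members and for 9.73% of all 13768 genes.

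The filter asked for about 0.469 CPM in 6 libraries and admitted 33 of the 36, leaving out Bub1, Ttk and Ndc80. In that fit, which gives the fold changes below unless said otherwise, all 33 tested genes fell (adjusted p of 4.67e-08 to 0.0122), and 19.2% of the 13768 genes were called lower and 20.7% higher. Since 13 of the 33 reached the filter's level in fewer than 6 LPD libraries, and so were admitted through the SPD libraries, the count over all 36 is given first. The median of all tested genes was near 0 (-0.00059).

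**Figure D1:**
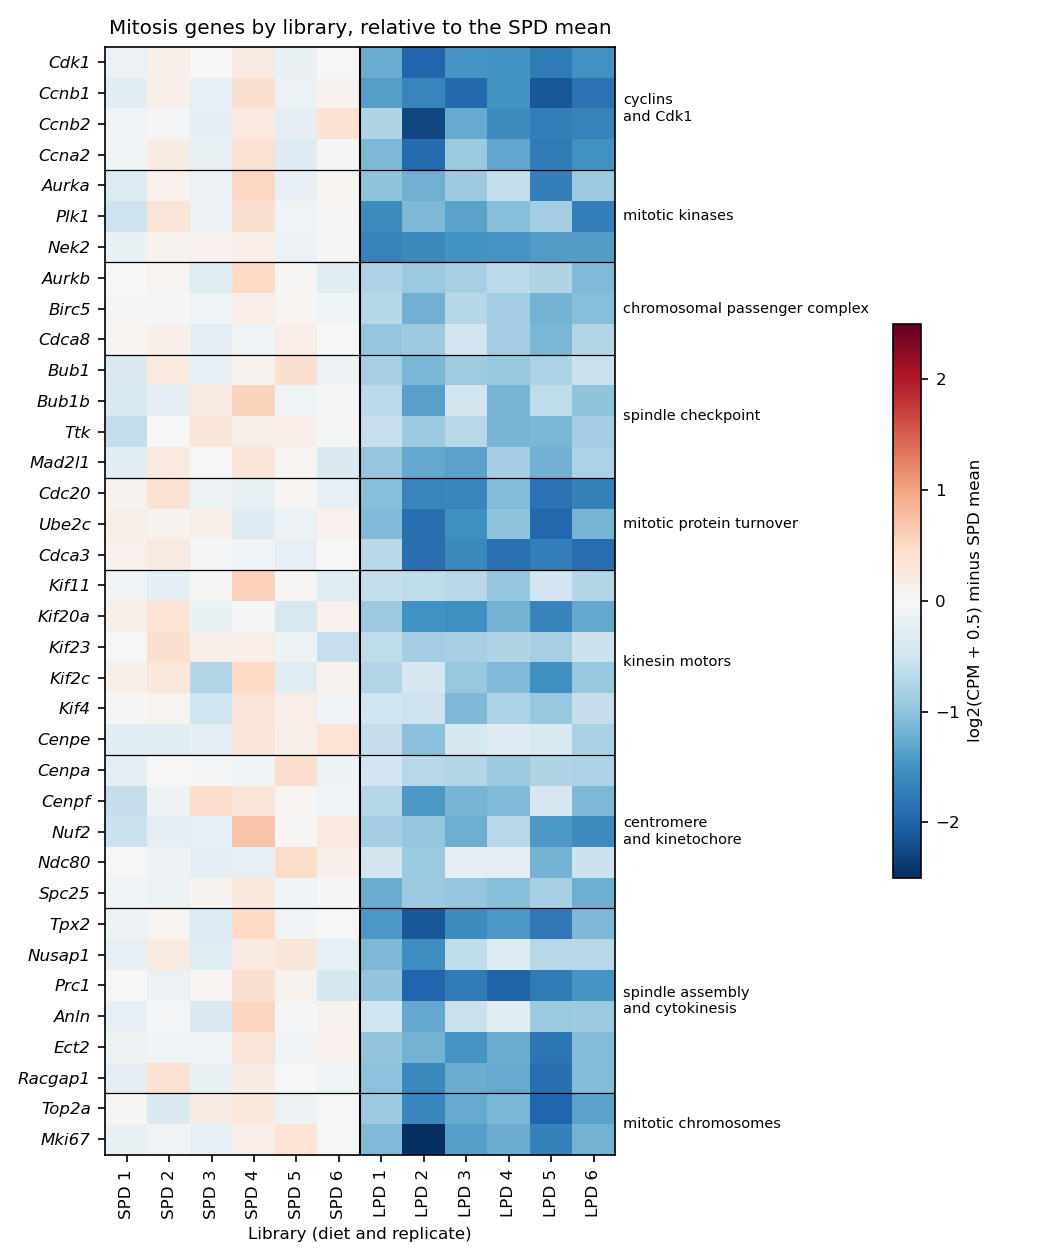
Each row is a mitosis gene, grouped by role, and each column a liver. Colour is log2(CPM + 0.5) minus the mean of the 6 SPD livers, so blue is lower. The 6 LPD columns are blue in nearly every row, and LPD replicates 2 and 5 hold the lowest LPD value in 24 of the 36 rows.

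The engine of mitotic entry fell steeply. Cdk1, the kinase that starts mitosis (chromosome 10, 69335146 to 69352938, minus strand, GRCm38), had 4.83 CPM in the lowest, 5.49 in the median and 6.38 in the highest SPD liver, and 1.01, 1.62 and 2.05 CPM in LPD livers. The diets were well apart, and the fold change was -1.84 ± 0.15 (adjusted p = 5.39e-07, edgeR), 3.57-fold lower. Ccnb1, cyclin B1, the partner of Cdk1 (chromosome 13, 100778650 to 100786570, minus strand), had 2.56, 3.11 and 4.38 CPM in SPD and 0.351, 0.599 and 0.910 CPM in LPD livers. It fell 5.12-fold (-2.35 ± 0.23, adjusted p = 2.28e-06), the largest estimate of the 33, resting on 53 to 83 counts per SPD library and 7 to 20 per LPD library. Ccna2, cyclin A2, which acts from S phase to early mitosis, went from 2.74, 3.51 and 4.80 CPM to 0.579, 1.04 and 1.66 CPM (-1.76 ± 0.23). Ccnb2, cyclin B2, was lowest in LPD replicate 2, at 0.145 CPM against 2.13 CPM in the lowest SPD liver, and fell by 2.06 ± 0.33 on the log2 scale.

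Among the mitotic kinases, Nek2, which separates centrosomes (chromosome 1, 191821444 to 191833050, plus strand), gave the smallest adjusted p of the 33 genes. Its SPD livers held 8.26, 9.51 and 10.7 CPM (lowest, median and highest) and its LPD livers 2.59, 3.02 and 3.26 CPM, a tight band in which LPD replicates 2 and 5 were not the lowest. The fold change was -1.65 ± 0.10 (adjusted p = 4.67e-08, edgeR). Plk1, which acts on centrosomes, kinetochores and cytokinesis, fell from a mean of 1.57 ± 0.467 to 0.352 ± 0.183 CPM (SD, n = 6; -2.15 ± 0.33). Aurka, the kinase of spindle poles, fell from 2.84 ± 0.765 to 1.11 ± 0.378 CPM (-1.33 ± 0.24).

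The chromosomal passenger complex, which corrects wrong attachments of chromosomes to the spindle, fell in all 3 of its members among the 36. Birc5, survivin, had 1.73, 1.89 and 2.16 CPM in SPD and 0.531, 0.728 and 0.956 CPM in LPD livers (-1.34 ± 0.19, adjusted p = 7.20e-05, edgeR). The kinase Aurkb (-1.34 ± 0.24) and the targeting subunit Cdca8, borealin (-1.19 ± 0.20), fell as well. The scaffold of the complex, Incenp, is not among the 36 and went from 4.02 to 2.60 CPM (-0.62 ± 0.20, adjusted p = 0.0226), with overlapping diets. Incenp missed the threshold without SPD replicate 4 (adjusted p = 0.0512) and when only SP1 and LP4 libraries were fitted (0.0617). With only SP2 and LP5 libraries it missed it too (0.433).

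**Figure D2:**
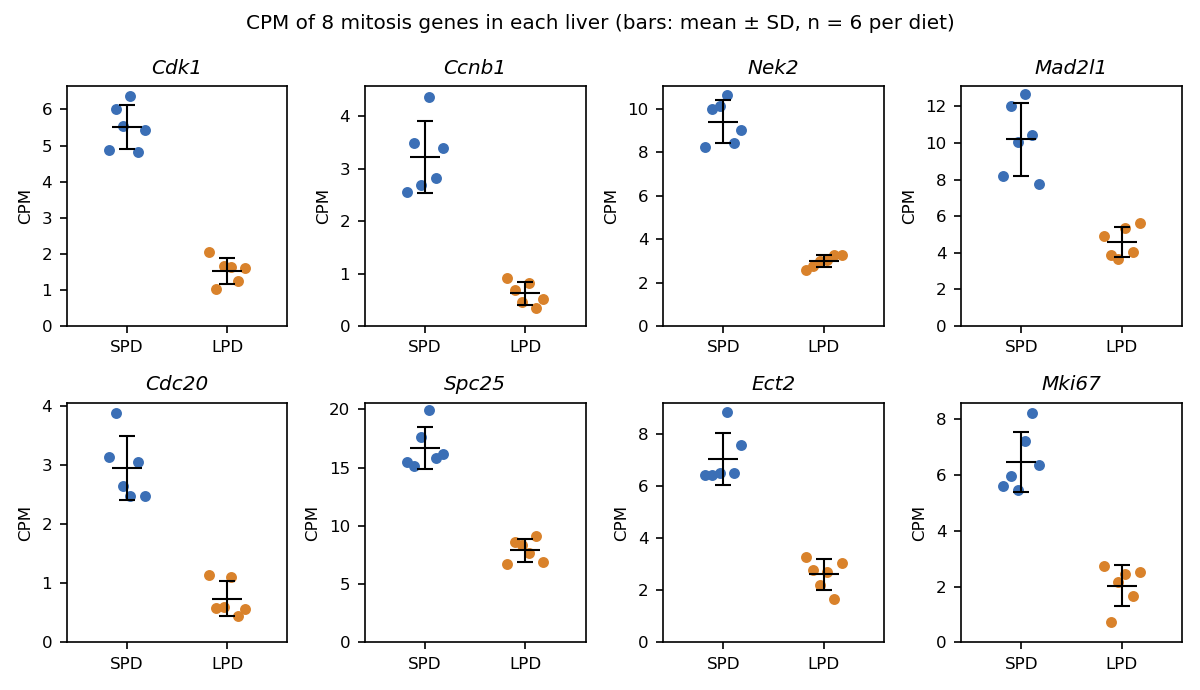
Points are the CPM of 8 mitosis genes in each liver, by diet, on axes that start at 0, and bars are mean ± SD with 6 livers per diet. For each of the 8 genes all LPD livers lie under all SPD livers, as for Cdk1 with at most 2.05 CPM against at least 4.83 CPM.

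The spindle checkpoint holds back chromosome separation until every kinetochore is attached. Mad2l1, its soluble inhibitor of Cdc20, went from 7.74, 10.2 and 12.7 CPM to 3.66, 4.49 and 5.62 CPM (-1.15 ± 0.15, adjusted p = 2.43e-05, edgeR). Bub1b, the BubR1 subunit, went from 1.98, 2.59 and 4.27 CPM to 0.773, 1.34 and 1.86 CPM (-1.11 ± 0.24), and LPD replicate 3 came close to the lowest SPD liver. The checkpoint kinases Bub1 and Ttk were too rare for the filter. Bub1 had 9 to 25 counts per SPD library and 1 to 8 per LPD library (-2.03 ± 0.42 without the filter, adjusted p = 0.00113, edgeR), and its diets did not overlap. Ttk had 6 to 22 and 1 to 7 counts (-2.15 ± 0.46, adjusted p = 0.00141), and 1 LPD liver lay above the lowest SPD liver. Of their checkpoint partners outside the 36, Bub3 had 28.0 CPM in SPD and 30.7 CPM in LPD livers (0.13 ± 0.058, adjusted p = 0.0776, edgeR). Bub3 passed, as higher, without SPD replicate 1 (adjusted p = 0.0282), without LPD replicate 1 (0.0411) and with that liver placed in SPD (0.0459). Mad1l1, which anchors Mad2l1 at kinetochores, rose in the filtered fit (0.31 ± 0.11, adjusted p = 0.0385, edgeR) but missed the threshold in the fit without the filter (adjusted p = 0.0592). It also missed it when a single liver was left out, whether SPD replicate 1, 2, 3 or 4 or LPD replicate 1, 2, 4 or 6 (adjusted p of 0.0522 to 0.0838). With LPD replicate 1 placed in SPD (0.119) and in the SP2 and LP5 libraries alone (0.944) Mad1l1 missed it as well.

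Genes that turn mitotic proteins over fell about 4-fold. Cdca3, an adaptor for the destruction of a brake on Cdk1, had 3.09, 3.55 and 4.36 CPM in SPD livers and 0.602, 0.697 and 2.05 CPM in LPD livers (-1.99 ± 0.26, adjusted p = 3.49e-05, edgeR), and its high LPD value was that of replicate 1. Ube2c, the ubiquitin-conjugating enzyme of the APC/C (-2.03 ± 0.29), and Cdc20, its activator (-1.97 ± 0.24), fell as well. Among 17 subunits and adaptors of the APC/C itself, 2 fell, 2 rose and 13 missed the threshold, shares below those over all tested genes, and their median was -0.011. Anapc2 (-0.27 ± 0.046) and Cdc26 (0.32 ± 0.071) had the smallest adjusted p of those.

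The 6 kinesin motors all fell. Kif20a, which works at the midzone in cytokinesis, had 2.04, 2.95 and 3.73 CPM in SPD and 0.551, 0.780 and 1.27 CPM in LPD livers (-1.77 ± 0.22, adjusted p = 1.88e-05, edgeR). Kif11, the motor that pushes spindle poles apart, went from 1.58, 2.03 and 3.32 CPM to 0.813, 1.13 and 1.35 CPM (-0.94 ± 0.21), without overlap. Kif2c, which takes microtubules apart at kinetochores (-1.86 ± 0.46), Kif4, a chromosome motor (-1.27 ± 0.29), and Kif23, the motor of centralspindlin (-1.19 ± 0.24), fell with overlapping diets, and 0 counts of Kif2c in LPD replicate 5 allow up to 0.150 CPM. Cenpe, the kinetochore motor that aligns chromosomes, fell by 1.05 ± 0.30 on the log2 scale (adjusted p = 0.0122, edgeR, the largest of the 33). It missed the threshold when LPD replicate 1 was placed in SPD (adjusted p = 0.0527), in the SP1 and LP4 libraries alone (0.144) and in the SP2 and LP5 libraries alone (0.140).

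At the centromere, Cenpa, the histone that marks it, had the smallest estimate of the 36 genes. It had 4.15, 4.76 and 6.87 CPM in SPD and 2.40, 2.73 and 3.41 CPM in LPD livers, still without overlap (-0.84 ± 0.14, adjusted p = 0.000246, edgeR). Cenpf, a large protein of the outer kinetochore, fell by 2.17 ± 0.48 on the log2 scale on few counts, with 8 to 29 per SPD library and 0 to 10 per LPD library (0 in replicate 2 allows up to 0.145 CPM).

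The 4 subunits of the NDC80 complex, which couples kinetochores to microtubules, are present in equal numbers in the complex but their mRNAs were not. Per length, Spc25 (chromosome 2, 69193895 to 69206194, minus strand) had 10.9 ± 1.18 RPKM (SD, n = 6) in SPD livers, the highest level of the 36 genes, and its partner Spc24, which is not among the 36, 10.4 ± 2.07 RPKM. Nuf2 had 0.578 ± 0.265 RPKM and Ndc80 0.293 ± 0.101 RPKM. In LPD livers the levels were 5.17 ± 0.633, 6.61 ± 0.687, 0.129 ± 0.0891 and 0.123 ± 0.0859 RPKM in the same order, so the Spc24 and Spc25 mRNAs stayed far above the other pair. In CPM, Spc25 went from 15.2, 16.0 and 19.9 (lowest, median and highest) to 6.74, 8.01 and 9.12, with LPD replicate 5 the highest LPD liver (-1.08 ± 0.094, adjusted p = 7.26e-07, edgeR). Spc24 fell as well (-0.66 ± 0.12), and Nuf2 fell from 13 to 41 counts to 1 to 12 counts (-2.13 ± 0.43). Ndc80 had 9 to 24 counts in SPD libraries and 0 to 11 in LPD libraries (-1.23 ± 0.48 without the filter, adjusted p = 0.0774), and 1 LPD liver lay above the lowest SPD liver.

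**Figure D3:**
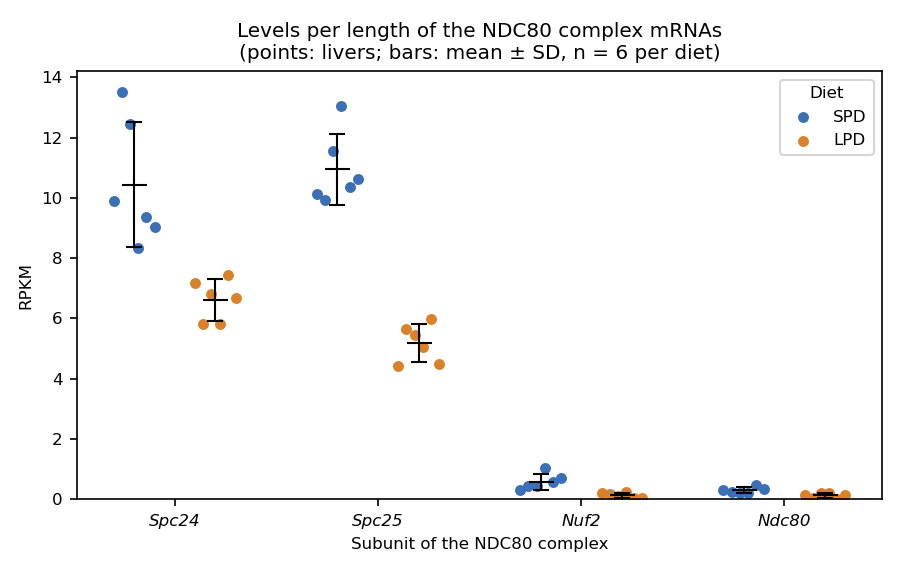
Points are RPKM (CPM per kilobase of the deposited gene length) of the 4 NDC80 complex mRNAs in each liver, with mean ± SD and 6 livers per diet. Spc24 and Spc25 lie between 4.41 and 13.5 RPKM, while Nuf2 and Ndc80 stay at or under 1.05 RPKM in both diets.

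Levels per length of the other genes were low too. Over the 36 the median was 1.01 RPKM in SPD and 0.292 RPKM in LPD livers, and 6 genes exceeded 2 RPKM in SPD livers. Those were Spc25, Mad2l1, Cdk1, Cenpa, Nek2 and Ube2c. Spc25, Mad2l1 and Nek2 together made 27.8% to 32.0% of the summed CPM of the 36 genes in SPD livers and 26.8% to 41.2% in LPD livers.

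Of the spindle and cytokinesis genes, Ect2, the activator of RhoA at the division furrow, had 6.42, 6.52 and 8.86 CPM in SPD and 1.65, 2.75 and 3.28 CPM in LPD livers (-1.42 ± 0.15, adjusted p = 5.03e-06, edgeR). Racgap1, which recruits Ect2 as part of centralspindlin, went from 2.80, 3.23 and 4.46 CPM to 0.551, 1.13 and 1.41 CPM (-1.68 ± 0.21). Prc1, which bundles midzone microtubules (-2.12 ± 0.25), and Tpx2, which activates Aurka on the spindle (-2.11 ± 0.25), had the lowest estimates. Nusap1, a microtubule-binding spindle protein (-1.15 ± 0.29, adjusted p = 0.00566), and Anln, anillin, the furrow scaffold (-0.93 ± 0.24, adjusted p = 0.00600), had smaller estimates by edgeR, and Anln overlapped between diets through LPD replicate 4. Nusap1 missed the threshold when LPD replicate 1 was placed in SPD (adjusted p = 0.0712), and Anln did so with 4 SP1 and 4 LP4 libraries alone (0.0903). Both missed it in the SP2 and LP5 libraries alone (0.163 for Nusap1 and 0.0740 for Anln).

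Of the genes of mitotic chromosomes, Mki67, the proliferation marker Ki-67 that coats chromosomes, had 5.46, 6.16 and 8.22 CPM in SPD and 0.724, 2.30 and 2.73 CPM in LPD livers (-1.65 ± 0.22, adjusted p = 3.68e-05, edgeR). Top2a, topoisomerase II alpha, fell 2.94-fold, from 5.71 ± 0.940 to 1.93 ± 0.601 CPM (-1.55 ± 0.19). Mki67 was lowest in LPD replicate 2 and Top2a in LPD replicate 5.

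**Figure D4:**
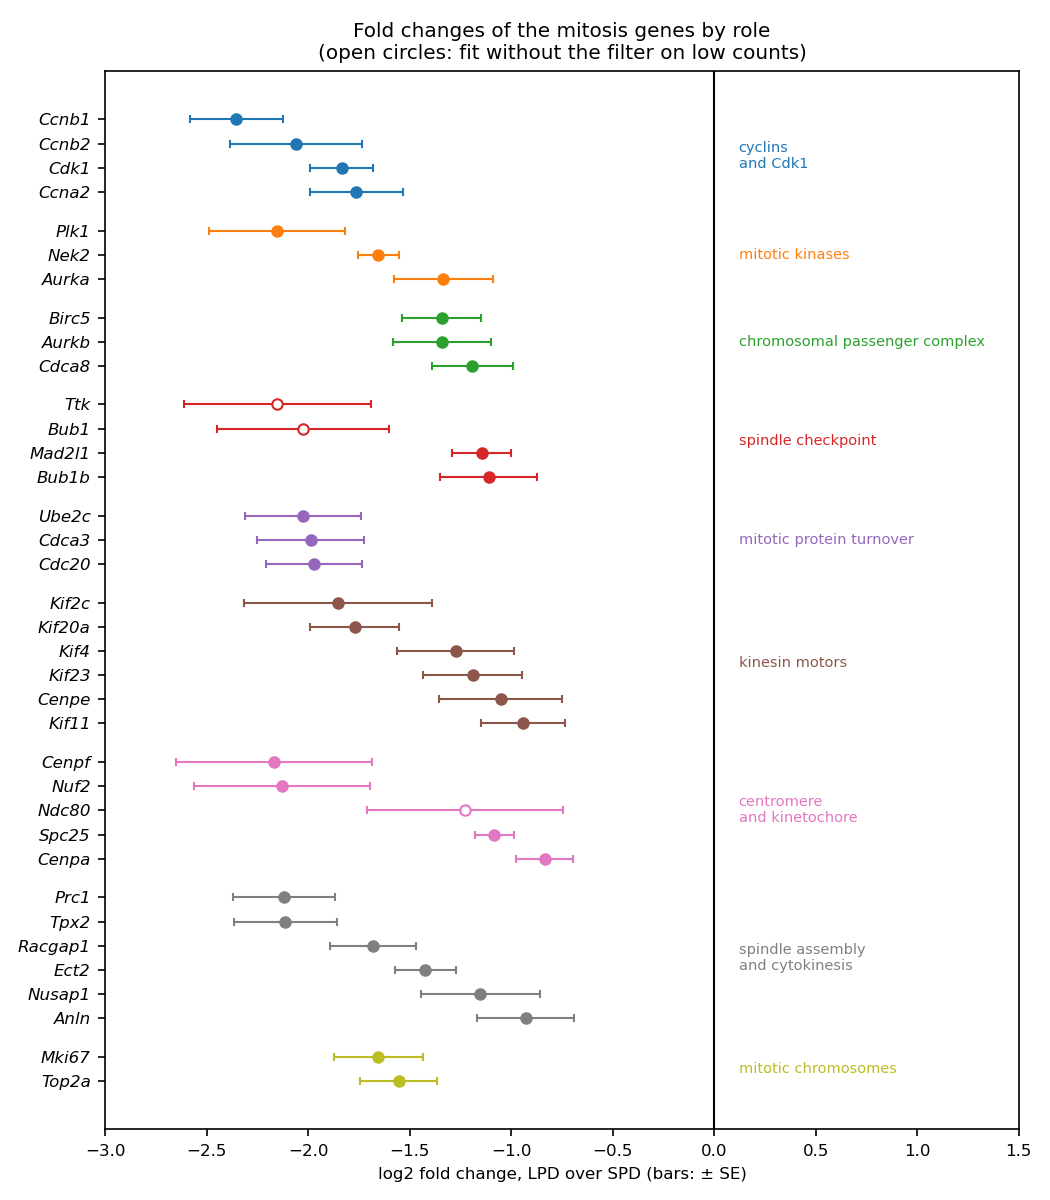
Points are log2 fold changes (LPD over SPD) ± SE of the 36 genes, grouped by role and sorted within it. Open circles are Bub1, Ttk and Ndc80, from the fit without the filter. All points lie left of 0, from -2.35 for Ccnb1 to -0.84 for Cenpa.

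Within a diet, the highest and lowest values of the genes gathered in some livers, and whether the genes varied together was not tested. SPD replicate 4 held the highest SPD value for 20 of the 36 genes, and its summed level was 150.2 CPM against 111 to 127.6 CPM in the other SPD livers. In LPD the sums were 53.1, 37.7, 46.0, 48.4, 39.9 and 45.7 CPM for replicates 1 to 6, which is 30.3% to 42.6% of the SPD mean of 124.6 CPM. Replicate 1 held the highest LPD value for 15 genes, and replicates 2 and 5 held the lowest for 24. Without replicates 2 and 5 the median of the 36 genes was -1.42, and 35 of 36 fell. SPD libraries carry codes that start with SP1 or SP2, and LPD libraries codes that start with LP4 or LP5, without a stated meaning. No code occurs in both diets, so a difference between codes and the diet cannot be told apart. In the 4 SP1 and 4 LP4 libraries alone 30 of 32 tested members fell, with a median of -1.52. In the 2 SP2 and 2 LP5 libraries alone 13 of 36 fell and all 36 were negative, with a median of -1.70. Over all genes, 1693 of 13824 were called lower in the first of these fits and 654 of 14130 in the second.

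Of the transcription factors of the G2 and M phases, Foxm1, the activator named above, fell 4.05-fold from 1.89 ± 0.566 to 0.456 ± 0.250 CPM (-2.02 ± 0.31, adjusted p = 0.000120, edgeR), without overlap. Mybl2, which encodes B-Myb, was too rare to test, at 0.246 CPM in SPD and 0.180 CPM in LPD livers. Lin54, the subunit of MuvB that contacts CHR sites, had 9.70 and 8.51 CPM (-0.19 ± 0.10, adjusted p = 0.146, edgeR). E2f4, the E2F of the DREAM complex, rose (0.37 ± 0.077, adjusted p = 0.00142). Of 14 tested genes of the DREAM, MuvB and NF-Y list, 3 fell and 3 rose, a share near that over all tested genes (19.2% lower and 20.7% higher). The other 8 missed the threshold, and the median was -0.046.

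Upstream in the cycle, 11 of 22 genes of G1 and S phase control fell and 2 rose, with a median of -0.29. Over all tested genes 19.2% fell and 20.7% rose, so rises were rarer in this list. The rises were those of the Cdk inhibitors Cdkn1a, p21, from 50.3 ± 10.6 to 102.6 ± 29.9 CPM (1.03 ± 0.18, adjusted p = 0.000449, edgeR), and Cdkn1b, p27 (0.33 ± 0.069). E2f1 (-1.55 ± 0.12) and cyclin E1, Ccne1 (-1.34 ± 0.17), fell without overlap. Cyclin D1, Ccnd1, fell from 99.1 ± 16.7 to 62.0 ± 12.8 CPM (-0.68 ± 0.14), and cyclin E2, Ccne2, by 0.72 ± 0.16 on the log2 scale. The atypical E2F repressors known for their part in hepatocyte polyploidy, E2f7 (-0.15 ± 0.37) and E2f8 (-0.17 ± 0.15), did not pass (adjusted p = 0.777 and 0.401, edgeR). Of 25 DNA replication genes 19 fell, against 19.2% of all tested genes, with a median of -0.65. Among them were Mcm2 (-1.30 ± 0.13) and Mcm4 (-1.21 ± 0.12) of the replicative helicase.

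Other mitosis genes, from a list of 69, fell in 35 of 54 tested cases, against 19.2% of all tested genes. Another 3 rose, 16 missed the threshold, and the median was -0.98 beside -1.65 for the tested genes of the 36. Pkmyt1, a kinase that restrains Cdk1 (-2.25 ± 0.24), and Hmmr, a spindle protein, fell without overlap. Hmmr, from 1.71 ± 0.368 to 0.158 ± 0.141 CPM, had the lowest estimate of that list (-3.37 ± 0.41). Its LPD livers held 0 to 0.385 CPM, all under the filter's level of about 0.469 CPM, so it was admitted through SPD libraries. Genes of the list under the filter were not counted. The 3 that rose were Mad1l1, Zw10 (0.44 ± 0.080) and Ccnf (0.36 ± 0.11), named after their values were seen. By edgeR, Ccnf missed the threshold without LPD replicates 2 and 5 (adjusted p = 0.0704). It did so too in the SP1 and LP4 libraries alone (0.185) and in the SP2 and LP5 libraries alone (0.133). Condensin, which folds mitotic chromosomes, and cohesin, which also serves resting cells, were listed together, and 7 of 17 fell, 1 rose and 9 did not pass. The shares over all tested genes were 19.2% lower and 20.7% higher. The 7 that fell, among them Smc2 (-1.16 ± 0.14) and Smc4 (-0.56 ± 0.088), are all condensin subunits.

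**Figure D5:**
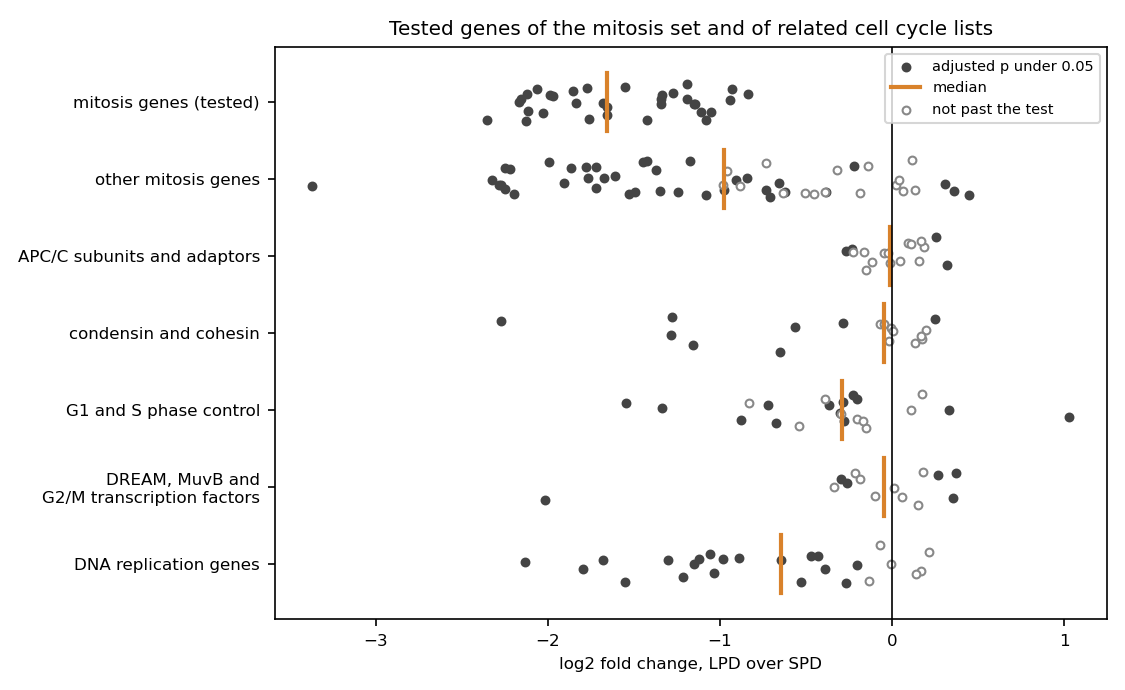
Points are log2 fold changes (LPD over SPD) of the tested genes of each list, filled where the adjusted p was under 0.05, and orange bars are medians. The tested mitosis genes centre at -1.65, other mitosis genes at -0.98, DNA replication genes at -0.65 and APC/C subunits at -0.011.

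Markers of some other liver cell types moved with the diet as well, and their part in the falls above was not tested. Over all tested genes 19.2% fell and 20.7% rose. Of 10 markers of lipid-associated macrophages 6 fell and 0 rose by edgeR (4 did not pass), and their sum was 1522 to 1859 CPM in SPD and 675 to 996 CPM in LPD livers, lowest in LPD replicates 2 and 5. Of 10 stellate cell markers 5 fell (534 to 746 and 360.4 to 635 CPM). Kupffer cell markers had 1 fall and 1 rise among 10 (803 to 1223 and 659 to 971 CPM), and sinusoidal endothelial markers 2 falls and 1 rise among 8 (401 to 454 and 359.7 to 418 CPM), shares near or below those over all genes.

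Of 8 monocyte and neutrophil markers 6 were tested and 1 fell (9.18 to 20.1 and 4.97 to 10.9 CPM), and of 7 B and plasma cell markers 5 were tested and 1 fell (8.48 to 29.3 and 5.61 to 11.3 CPM). Of 10 T and NK cell markers 4 were tested and 0 passed by edgeR (4.14 to 8.87 and 2.99 to 8.09 CPM), with Cd3e, Cd3d and Cd3g under the filter. Of 7 tested erythroid markers 1 (Tfrc) fell. The erythroid sum was 1007 to 1760 CPM in SPD livers, 281 to 440.1 CPM in 5 LPD livers and 2201 CPM in LPD replicate 4. In all LPD livers but that one it thus lay below every SPD liver. The globin mRNAs Hba-a1, Hba-a2, Hbb-bs and Hbb-bt, which are in that sum, did not pass. Alas2 (0.030 ± 0.10) and Klf1 (0.11 ± 0.27, both without the filter) did not pass either. Of 8 cholangiocyte markers 5 were tested and Spp1, also on the macrophage list, fell (156 to 449 and 43.3 to 117.6 CPM for the sum with Spp1). The other tested ones, Krt19, Krt7, Epcam and Sox9, did not pass, and the median of the 5 was -0.0078.

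Reads of 8 members can be shared with a protein-coding gene that overlaps on the opposite strand in GENCODE M21, since the sources used here do not state whether counting used strand. Of the partners, Elovl1 beside Cdc20 (-0.46 ± 0.072) and Oip5 beside Nusap1 (-1.72 ± 0.37) fell. Exosc9 beside Ccna2, 9930104L06Rik beside Cdca8, Cdc23 beside Kif20a, Pdzd11 beside Kif4 and Rccd1 beside Prc1 did not pass, and Tnnc2 beside Ube2c was not tested.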

How the data were processed

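Whole-liver RNA of 12 mice was sequenced from TruSeq libraries of DNase-treated TRIzol extracts, per the labels' protocols. The submitters' processing notes name TopHat, DESeq2 and the mm10 build, without version or role. Counter, annotation release and strand setting: not given in the sources used here. Values in the deposited matrix are expected counts that the authors had not scaled between libraries (17.1% to 18.9% of nonzero values per library were not whole), beside a gene length used here for RPKM.

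Counts were rounded and fitted in R 4.3.3 with edgeR 4.0.16: filterByExpr (minimum count 10, minimum total 15), TMM, and the quasi-likelihood F test of LPD against SPD with Benjamini-Hochberg adjustment over all 13768 tested genes and a threshold of 0.05. SE is the absolute log2 fold change over the square root of F. The procedure was tested on simulated data. Alternatives were other scalings and filters, DESeq2 1.42.0 (Wald), limma 3.58.1 (voom with sample weights), the replicate block, and libraries left out. No pair of libraries of a diet agreed within sampling noise.

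The genes and lists were chosen with earlier results of these data known. The lowest, median and highest liver of each diet are given for the 2 members with most counts in each role of 4 or more, the 1 with most in smaller roles, and the largest and smallest fold changes; in other lists the 2 called genes with the smallest adjusted p and 9 regulators are named. Incenp, Spc24, Bub3, Mad1l1, Zw10, Ccnf, Cdkn1b and the overlapping genes were named after their values were seen. Coordinates are from GENCODE M21 (GRCm38) by gene ID, and promoters from RefSeq.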

Additional observations from a re-analysis of the deposited data

Results flagged for a closer look

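In 3 of 74 groups of 6 livers (36 genes and their sum in 2 diets) 1 liver stood apart from the other 5 by Dixon's criterion, and chance gives about 1 in 20. Cdca3 had 2.05 CPM in LPD replicate 1, and the next liver of that diet had 0.853 CPM. Kif11 had 3.32 CPM in SPD replicate 4, above 2.14 CPM in the next. Cenpa had 6.87 CPM in SPD replicate 5, above 4.95 CPM in the next. Each was the highest value of its diet, and without that liver the gene still fell.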

How the results depend on the processing

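Under 23 alternatives, 727 of 751 member values kept their direction and side of the threshold, 24 missed the threshold and 0 changed sign. Of the 24, 20 were in the 2 SP2 and 2 LP5 libraries alone, where 13 members, 654 genes in all lower and 540 higher were called. In the SP1 and LP4 libraries alone 1693 genes were lower and 1827 higher. These settings have fewer libraries. Of the named genes outside the 36, 16 passed in the filtered fit of all libraries but missed the threshold in the SP2 and LP5 libraries alone. Among these were Foxm1 (adjusted p = 0.0535, edgeR), E2f4 (0.209), Ccne1 (0.0960), Ccnd1 (0.0769) and Spc24 (0.168). With LPD replicates 2 and 5 left out the members' median was -1.42. With LPD replicate 1, whose labels conflict, placed in SPD, 33 of 36 members were called lower and the median was -1.60. DESeq2 and limma-voom called all 33 tested members lower. Leaving out 1 library at a time gave 33 to 36 members lower, with medians of -1.72 to -1.55.

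Estimates that missed the threshold changed sign for Lin54 in the SP2 and LP5 libraries alone (0.10), for E2f8 in the SP1 and LP4 libraries alone (0.031) and for E2f7 without LPD replicates 2 and 5 (0.11). Leaving out 1 library gave E2f7 -0.37 to 0.023, with the sign changed without SPD replicate 2 (0.023) or LPD replicate 2 (0.021). The cause was not tested. With the replicate number as a block 33 members, 2562 genes in all lower and 2668 higher were called. The samples share only a number: same-numbered libraries deviated together with correlations of -0.054 to 0.097, and 2 of 6 SPD libraries correlated best with their own number. Depth limits the rarest members: 8 of the 36 averaged under 10 counts in LPD libraries.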
